A study of Mus musculus with 12 samples.

Results

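Cck, its neighbours Trak1, Lyzl4 and Vipr1 on chromosome 9, and the CCK receptor genes Cckar and Cckbr were examined for cJun and H3K4me3 peaks in Min6 cells. These 6 genes are among 21755 protein-coding genes in the annotation. They were chosen because Cck encodes the hormone of interest, 3 lie in its neighbourhood on chromosome 9, and 2 encode its receptors. All peaks of 4 deposited lists that touched a gene body (GENCODE vM21, GRCm38) or its 50 kb flanks were taken. There were 11 such peaks of 4960 in the DMSO cJun list, 4 of 1632 in the JNKi cJun list, 17 of 19372 in the DMSO H3K4me3 list and 19 of 19032 in the JNKi H3K4me3 list. Windows of adjoining genes overlap, so a peak can count for more than 1 gene, although each was counted once in these totals.

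The peaks came from CUT&RUN, in which a nuclease tethered by an antibody releases the DNA around the bound protein. Min6 cells, which derive from a mouse insulinoma, serve as a β cell model. They are a single transformed line without the exocrine tissue that surrounds islets. For 48 hours they were kept in 20 µM SP600125, which inhibits JNK, the kinase that phosphorylates cJun (JNKi), or in DMSO alone. Chromatin from 550000 cells was then probed for cJun, for H3K4me3 (positive control) or with IgG (negative control). Each of the 6 groups had 2 biological replicates, 12 samples in all.

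Every list pairs both replicates of its group, and a peak is present in it only if it was called in each replicate. The strength of a peak is given as −log10 of its MACS2 p-value against IgG, separately for the replicates, and its rank is set by the weaker replicate. The irreproducible discovery rate (IDR) estimates how likely a peak is to fail to replicate, so lower is better. Each library was sequenced to a nominal 30000000 paired-end reads, but the depth that each reached was not analysed here. The −log10 p is not comparable between lists, and with 1 list per treatment a difference in peak number has no replicate error.

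Cholecystokinin (CCK) is a peptide hormone of intestinal endocrine cells and neurons that drives enzyme secretion by pancreatic acinar cells and emptying of the gallbladder. It is made as a precursor that prohormone convertases cut and other enzymes sulfate and amidate, and it acts on the G protein-coupled receptors encoded by Cckar and Cckbr. cJun is the JNK substrate that forms the AP-1 transcription factor with partners such as Fos proteins, while H3K4me3 marks the nucleosomes around active or poised promoters.

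The DNA under the cJun peaks is shown first, because these sites and promoters are the ones to which the peak values below refer. The search covered AP-1 (TGACTCA or TGAGTCA), the cAMP response element CRE (TGACGTCA), a CRE-like element (TGCGTCA), the form TCAGTCA or TCACTCA, and the E-box CACGTG, on both strands. None of these strings contains another. Capitals mark matches, and lower case is the rest of the GRCm38 sequence. The first 3 sequences, all on the plus strand, are the 300 bases around DMSO cJun summits. They show the peak beyond the 3′ end of Cck and the other 2 DMSO peaks that a JNKi peak overlapped. The printed Lyzl4 stretch, with its marked match, lies wholly outside the JNKi peak there, which ended at 121576563.
Cck downstream site, chr9:121487146-121487445: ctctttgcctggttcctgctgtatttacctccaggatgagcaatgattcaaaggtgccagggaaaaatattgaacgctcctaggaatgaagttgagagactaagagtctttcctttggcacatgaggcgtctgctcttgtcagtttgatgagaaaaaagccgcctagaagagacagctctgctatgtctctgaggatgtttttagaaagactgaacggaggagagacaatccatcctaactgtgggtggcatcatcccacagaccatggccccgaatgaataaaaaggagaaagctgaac
Lyzl4 3′ site, chr9:121576766-121577065: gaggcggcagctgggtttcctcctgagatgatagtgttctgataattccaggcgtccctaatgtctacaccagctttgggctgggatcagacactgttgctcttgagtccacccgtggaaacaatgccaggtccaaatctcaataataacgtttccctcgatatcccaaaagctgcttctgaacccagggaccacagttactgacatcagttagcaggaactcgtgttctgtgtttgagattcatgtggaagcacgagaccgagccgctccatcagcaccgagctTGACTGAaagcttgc
Vipr1 intron site, chr9:121659773-121660072: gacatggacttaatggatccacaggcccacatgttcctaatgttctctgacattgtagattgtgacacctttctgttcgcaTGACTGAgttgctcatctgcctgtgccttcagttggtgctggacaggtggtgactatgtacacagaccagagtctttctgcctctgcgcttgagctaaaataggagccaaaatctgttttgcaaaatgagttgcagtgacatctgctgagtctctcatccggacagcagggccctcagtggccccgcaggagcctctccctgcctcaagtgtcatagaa

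Promoter sequence upstream of the annotated start is given for Cck, for Cckbr, and for an internal Trak1 start that lies inside an H3K4me3 peak. These come from RefSeq on GRCm38, the Cck sequence on the minus strand and the other 2 on the plus strand.
Cck promoter, chr9:121495695-121495944: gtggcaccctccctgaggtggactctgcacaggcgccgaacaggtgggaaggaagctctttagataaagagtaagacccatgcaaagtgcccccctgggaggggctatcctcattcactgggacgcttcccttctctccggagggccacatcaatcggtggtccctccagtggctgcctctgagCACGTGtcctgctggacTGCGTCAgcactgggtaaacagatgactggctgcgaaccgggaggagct
Cckbr promoter, chr7:105425481-105425675: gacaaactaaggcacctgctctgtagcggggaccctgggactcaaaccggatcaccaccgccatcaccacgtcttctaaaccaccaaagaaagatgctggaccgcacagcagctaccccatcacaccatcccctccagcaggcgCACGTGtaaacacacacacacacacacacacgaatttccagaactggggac
Trak1 internal promoter, chr9:121403196-121403445: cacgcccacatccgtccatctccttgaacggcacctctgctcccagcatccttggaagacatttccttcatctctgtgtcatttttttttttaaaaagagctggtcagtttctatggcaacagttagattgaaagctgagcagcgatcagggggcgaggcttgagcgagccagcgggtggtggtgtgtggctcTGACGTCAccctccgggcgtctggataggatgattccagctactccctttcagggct

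No AP-1, CRE or CRE-like match lay within 150 bp of the summit of any of the 11 DMSO or 4 JNKi cJun peaks, nor anywhere within these peaks. Over all summit windows of 300 bp, AP-1 occurred in 18.2% in DMSO and 21.9% in JNKi, and in 5.20% of 32851 RefSeq promoters of that length. CRE occurred in 1.794% of DMSO and 3.615% of JNKi windows, and the CRE-like element in 2.198% and 2.635%. Both were rare in the whole lists, so nothing is read from their absence near 11 and 4 summits. The form TCAGTCA or TCACTCA lay within 150 bp of 2 of the 11 DMSO summits, those of the Lyzl4 3′ site and the Vipr1 intron site, and of 1 of the 4 JNKi summits, again in the Vipr1 intron. Its share was 9.80% of all DMSO windows, 10.1% of JNKi windows and 9.48% of promoters. E-boxes were found near 2 of 4 JNKi summits and 0 of 11 DMSO summits, against 6.50% and 5.77% of the windows of each list and 7.15% of promoters. Over whole peaks, E-boxes lay in 2 of 4 JNKi and 2 of 11 DMSO peaks, and the form TCAGTCA or TCACTCA in 1 of 4 and 4 of 11. The shares given here refer to 300 bp windows, whereas whole cJun peaks near these genes were up to 1471 bp wide. Shares over all whole peaks were not counted, so nothing is read from the whole-peak counts. The E-box at the Lyzl4 3′ site, at 121576455, lay inside the merged peaks of both treatments and was near the JNKi summit only. In DMSO it lay inside the peak of the second replicate but not of the first. These are matches of letters and do not show which factor was bound.

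The Cck promoter held an E-box and, further on, a CRE-like element, which begin at bases 185 and 202 of the 250 printed upstream of the start site. The CRE-like string occurred in 2.12% of RefSeq promoters, a share counted over 300 bp windows that include transcribed bases, whereas the windows searched here were 250 bp long and that of Cckbr 195 bp. In neither list did a cJun peak cover the Cck promoter, and the nearest lay 8240 bp away in DMSO and 8251 bp away in JNKi. A full CRE was found in the internal Trak1 promoter (1.79% of promoters) and an E-box in the Cckbr promoter, where the DMSO cJun peak covered it at 105425625. RefSeq promoters were matched for 5 of the 6 genes, in 10 windows upstream of a start. The 3 printed windows held these matches, and the other 7 held no match to any of the motifs. CpG counts per 300 bp ranged from 5 at a Lyzl4 start to 41 at the upstream Trak1 start, with 10 at Cck, 15 at Cckbr and 35 at Vipr1, against a median of 7 over all promoters.

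At Cck (ENSMUSG00000032532.7, chromosome 9, 121489824 to 121495694, minus strand), the only cJun peak within 50 kb in either list lay in intergenic DNA beyond the 3′ end. The replicate peaks of this site were 1209 and 980 bp wide in DMSO and 541 and 576 bp wide in JNKi. Both JNKi replicates were therefore narrower than both DMSO replicates, with a mean of 1094.5 ± 162 bp (SD, n = 2) against 558.5 ± 24.7 bp (SD, n = 2). Over all 1150 cJun peaks paired across treatments by largest overlap, 44.1% were likewise narrower in both JNKi replicates. At Cck the difference of -536 bp had an exact two-sided permutation p of 0.333, the smallest that 2 against 2 replicates can give. The summits of the merged peaks were 17 bp apart, 2529 bp beyond the 3′ end of Cck in DMSO and 2512 bp beyond it in JNKi. The edge near the gene lay 2370 bp (DMSO) and 2381 bp (JNKi) beyond the 3′ end and the far edge 3578 and 2982 bp, so the peaks differed on the side away from the gene.

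**Figure D1:**
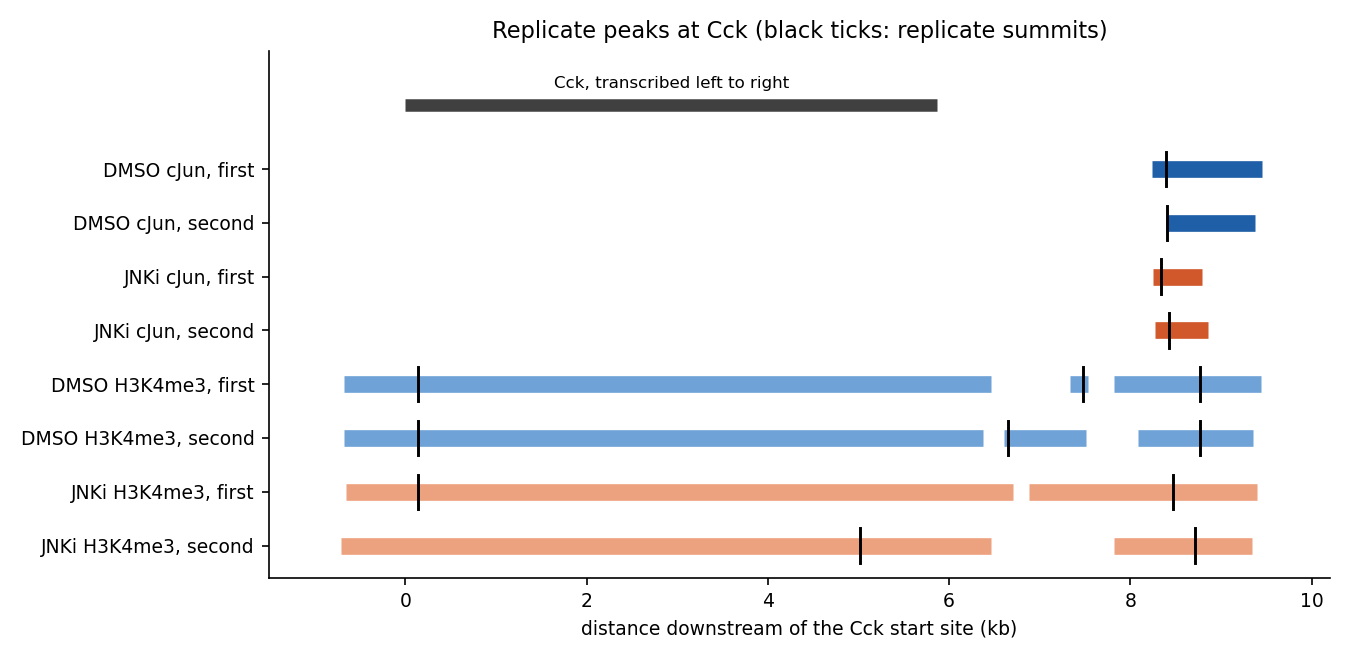
Replicate peaks at Cck by antibody and treatment (rows, with the first and second replicate of each list) against distance downstream of the Cck start site in kb; bars span the peaks and black ticks mark summits. The cJun bars lie beyond the gene in all 4 replicates and are shorter in JNKi, and the summit of the H3K4me3 peak over the gene stands apart in the second JNKi replicate.

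The Cck site was weak in both cJun lists. In DMSO its −log10 p was 7.45 and 3.06 in the replicates, which gave rank 4898 of 4960 and an IDR of 0.729. In JNKi the values were 8.75 and 4.27, rank 1360 of 1632, with an IDR of 0.672. The second replicate set these ranks, and by the first replicate alone the site stood at 2690 in DMSO and 629 in JNKi. The replicate summits were 1 bp apart in DMSO and 80 bp apart in JNKi.

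H3K4me3 was also found at this site. The DMSO peak (121486255 to 121487877) had −log10 p of 13.9 and 20.1, and the JNKi peak (121486295 to 121488808) had 21.8 and 11.9. Both were weak for this mark, at rank 14810 of 19372 with an IDR of 0.105 in DMSO. In JNKi the rank was 15215 of 19032 and the IDR 0.0314. Its widths overlapped between treatments, at 1450 ± 245 bp in DMSO and 2017 ± 703 bp in JNKi (SD, n = 2 each, exact permutation p = 0.667). A further small DMSO peak (121488161 to 121489090, with 6.95 and 5.40) lay between this site and the gene, where JNKi had no separate peak. Its rank was 18247 and its IDR 0.306.

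H3K4me3 covered Cck from its promoter past its 3′ end. The peak spanned 121489235 to 121496366 in DMSO and 121488991 to 121496408 in JNKi, widths of 7132 and 7418 bp that stood at 119 and 101 in the order of width in their lists. Median widths over the whole lists were 1839 and 1907 bp. Replicate widths were 7132 and 7042 bp in DMSO and 7362 and 7178 bp in JNKi, so both JNKi values were higher, by a mean of 183 bp (exact permutation p = 0.333). Among all 17850 H3K4me3 peaks that paired across treatments by largest overlap, 20.6% were wider in both JNKi replicates than in both DMSO replicates.

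The −log10 p of the peak over Cck was 504.9 and 435.7 in the DMSO replicates, and 535.6 and 4.0 in the JNKi replicates. The second JNKi replicate was thus far below the other 3, although its borders were those of a broad peak. That value placed the JNKi peak at rank 18712 of 19032 with an IDR of 0.282, whereas the DMSO peak ranked 761 of 19372 with an IDR of 0.00188. By the first replicate alone the JNKi peak ranked 1129. The replicate summits coincided at 121495549 in DMSO, close to the start site, but in JNKi lay at 121495549 and 121490677, 4872 bp apart. Such pairs were not rare among broad peaks. Replicates differed at least 10-fold in −log10 p in 2.11% of all DMSO and 2.07% of all JNKi H3K4me3 peaks, and in 14.3% of 565 DMSO and 15.8% of 584 JNKi peaks of at least 5 kb. Of those, 75.3% and 71.7% had replicate summits at least 1 kb apart. Whether the low value reflects less H3K4me3 was not tested.

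Beyond its 3′ end, 14905 bp away, Cck is followed by Trak1 (ENSMUSG00000032536.11, 121297502 to 121474918, plus strand), which encodes an adaptor that couples mitochondria to kinesin motors. On the other side, 82148 bp from the Cck start, is the 3′ end of Lyzl4 (ENSMUSG00000032530.14, 121577843 to 121642096, minus strand), a lysozyme-like gene. Vipr1 (ENSMUSG00000032528.5, 121642716 to 121672954, plus strand), which encodes a receptor for vasoactive intestinal peptide, starts 620 bp from Lyzl4 in the opposite direction.

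**Figure D2:**
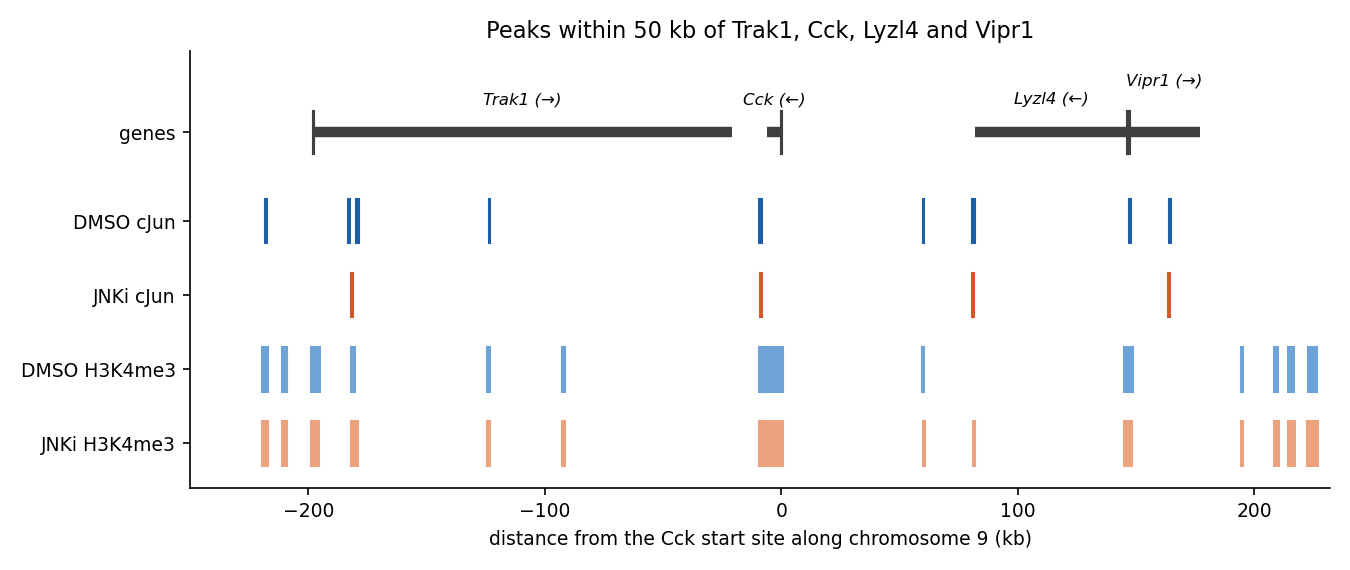
Peaks of the 4 lists within 50 kb of Trak1, Cck, Lyzl4 and Vipr1 against distance from the Cck start site in kb; blocks are peaks, the narrowest drawn at a minimum width, and arrows give the direction of transcription. Most H3K4me3 blocks recur in both treatments, whereas 3 of the DMSO cJun blocks in this region have an overlapping JNKi block.

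All 6 genes had a DMSO cJun peak within 50 kb, against 28.4% of protein-coding genes. With JNKi 4 did (Cck, Trak1, Lyzl4 and Vipr1), against 12.2%. These counts use all peaks of the lists. None of the cJun peaks near these genes had an IDR of 0.05 or less, so at that threshold both counts of peaks and of genes became 0, against 8.97% of all DMSO cJun peaks and 15.6% of JNKi cJun peaks that pass it. Gene length sets how much DNA this window holds, and Trak1 alone spans 177417 bp. Within 1 kb of a start site, 3 genes had a DMSO cJun peak (Lyzl4 and Vipr1, which share it, and Cckbr) and 0 a JNKi peak, against 6.94% and 2.51% of genes. A cJun peak at most 5 kb beyond the 3′ end, a rule set after the values were seen, was present at Cck and Lyzl4 in each list, against 2.02% of genes in DMSO and 0.731% in JNKi. As the distance was chosen with the Cck site known, nothing is read from these shares, and at 2 kb Cck no longer counts and Lyzl4 alone remains.

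Of the 11 DMSO cJun peaks, 3 were overlapped by a JNKi peak, the sites beyond Cck and Lyzl4 and in the Vipr1 intron. Over the whole DMSO list the share was 23.6%. In turn, 3 of the 4 JNKi peaks overlapped a DMSO peak, against 72.0% of the JNKi list, and the remaining peak lay in a Trak1 intron. The JNKi list was also much the shorter, so fewer JNKi peaks near any gene cannot be told apart from a weaker or shallower pair of libraries.

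Among the Trak1 peaks, the strongest in DMSO covered the start of Gm34655 beyond the 5′ end of Trak1 (121277306 to 121277964). Its −log10 p was 10.9 and 10.7, with rank 638 and an IDR of 0.129, the lowest IDR of the 11. It had no JNKi overlap. A pair of DMSO peaks stood in introns near the 5′ end, at 121312504 to 121313245 (8.81 and 8.92, rank 1040) and at 121315988 to 121317081 (10.4 and 6.50, rank 2070). The JNKi peak lay between them at 121313813 to 121314442, with values of 3.40 and 3.18 close to the lower limit of the list and rank 1602. The last intronic DMSO peak, at 121371883 to 121372286, had 6.62 and 6.59 and rank 2028.

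On the Lyzl4 side, the DMSO peak at 121576344 to 121577814 lay just outside Lyzl4, 29 bp past its 3′ end. Its −log10 p was 12.02 and 9.26, rank 914, with an IDR of 0.150. In JNKi the overlapping peak (121576305 to 121576563) had 4.47 and 5.98, rank 1255, and shared 220 bp with it. Replicate widths were 1009 and 1020 bp in DMSO and 218 and 211 bp in JNKi, a difference of -800 bp (exact permutation p = 0.333). The summits were 398 bp apart, and both JNKi replicates overlapped the second DMSO replicate but not the first, which began at 121576806. The widths therefore compare partly neighbouring peaks and not a single site. A second intergenic DMSO peak (121555454 to 121556170) had 6.42 and 15.4 and rank 2106, with no JNKi overlap.

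At Vipr1, a DMSO cJun peak (121642809 to 121643769) began 93 bp past the start site, with −log10 p of 13.7 and 4.15 and rank 4110. No JNKi peak overlapped it. The intronic site was present with both treatments, at 121659641 to 121660261 in DMSO (7.16 and 4.24, rank 3995) and 121659349 to 121660065 in JNKi (4.996 and 3.91, rank 1431). Its replicate widths were 184 and 604 bp in DMSO and 443 and 717 bp in JNKi, which overlap (exact permutation p = 0.667).

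Of the 3 pairs of overlapping cJun peaks, 2 were narrower in both JNKi replicates, those at Cck and, with the partial overlap described, at Lyzl4. Over all pairs in the lists, as given above, 44.1% were narrower, while 6.87% were wider in both JNKi replicates, and the mean of the replicate widths had a median of 732 bp for DMSO against 513 bp for JNKi. All 4 JNKi peaks fell below the median rank of their list, at percentiles of 1.84 to 23.0, where 100 is the strongest. The DMSO peaks ran from 1.23 (the Cck site) to 87.1, with 3 of 11 below the median.

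**Figure D3:**
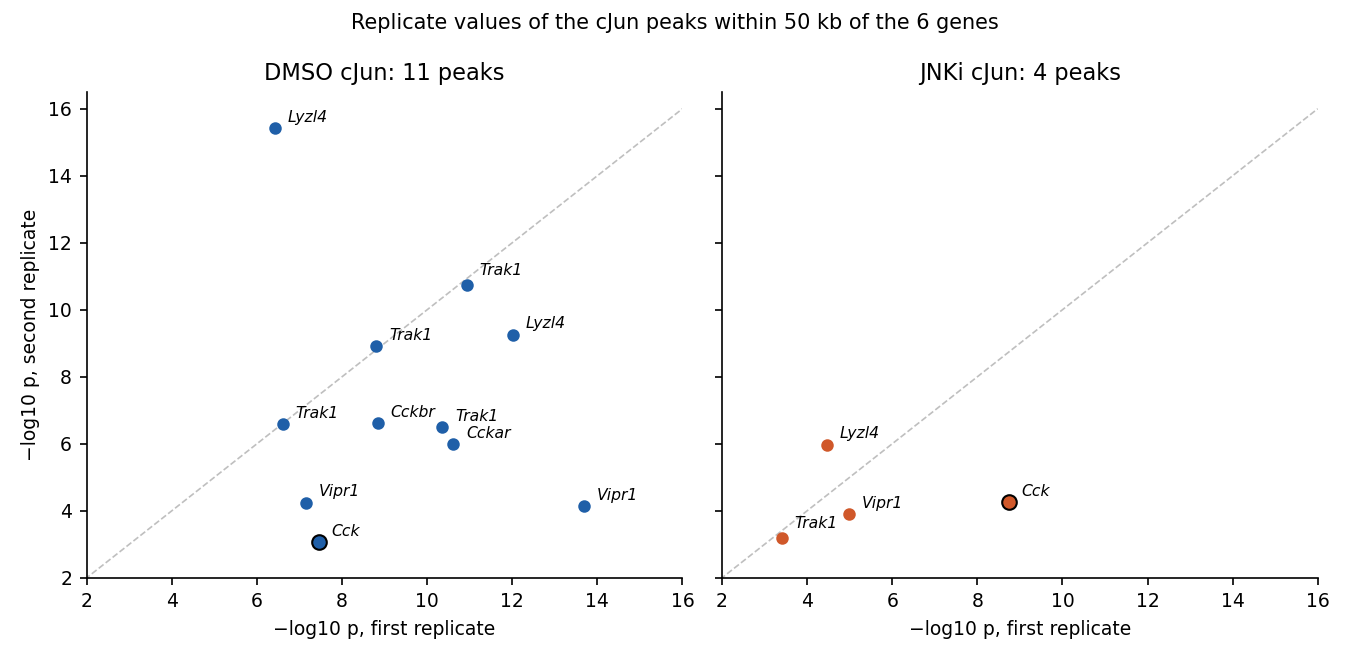
The −log10 p of each cJun peak near the 6 genes in the first (horizontal axis) and second (vertical axis) replicate, DMSO left and JNKi right; 1 point per peak, named by the nearest of the 6 genes, with the Cck site outlined. The dashed line marks equal values, and the Cck site has the lowest second-replicate value in DMSO (3.06) and the highest first-replicate value in JNKi (8.75).

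Each neighbour had H3K4me3 over at least 1 start under both treatments, but not over every annotated start. Among those in no peak with either treatment were the Trak1 starts at 121366968, 121367016 and 121415975 and a Lyzl4 start at 121586961. The peak over the Trak1 start had −log10 p of 386.8 and 280.2 in DMSO and 430.7 and 288.6 in JNKi. A weaker peak over the internal Trak1 start whose promoter is printed above had 57.3 and 42.3 in DMSO and 70.4 and 61.4 in JNKi. Lyzl4 and Vipr1 shared 1 peak across their divergent starts, with 228.8 and 174.0 in DMSO and 208.4 and 227.6 in JNKi.

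Replicate widths of these peaks overlapped between treatments. At the Trak1 start the means were 3322 ± 494 bp in DMSO and 2969 ± 129 bp in JNKi (SD, n = 2 each, exact permutation p = 0.667). At Lyzl4 and Vipr1 they were 3477 ± 116 and 3540.5 ± 117 bp (SD, n = 2 each, exact permutation p = 0.667). The Cck peak was the broadest H3K4me3 peak near any of the 6 genes in each list.

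**Figure D4:**
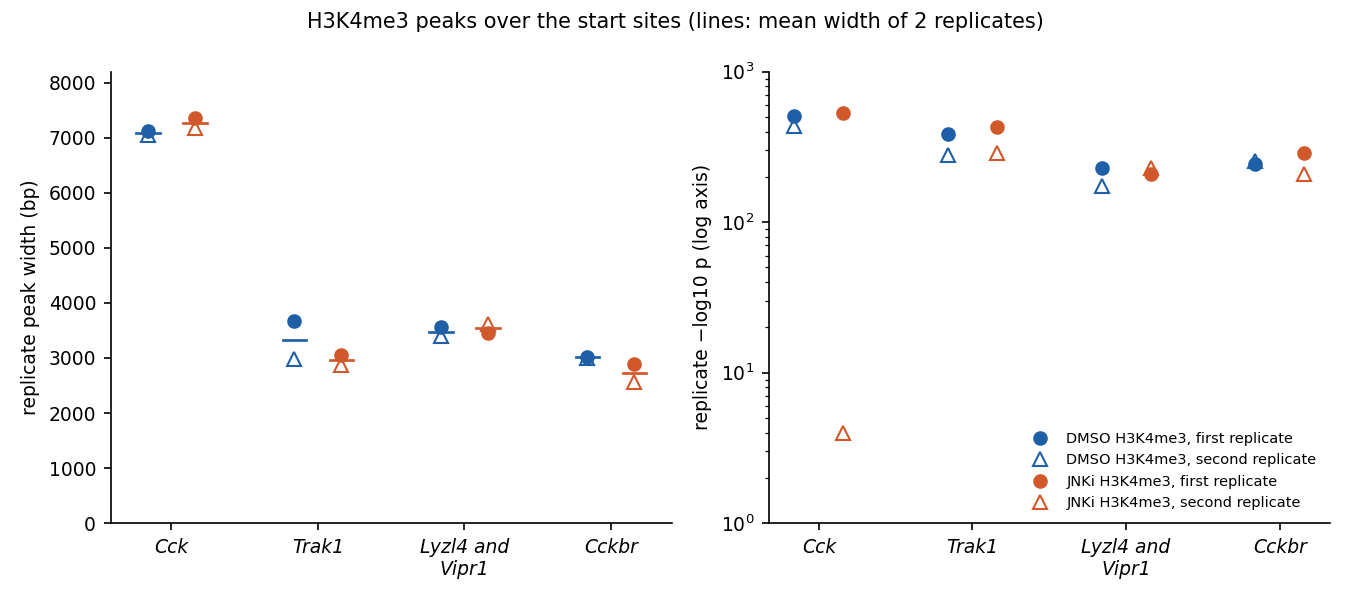
Replicate width in bp (left) and replicate −log10 p on a log axis (right) of the H3K4me3 peaks over the starts of Cck, Trak1, Lyzl4 with Vipr1, and Cckbr; circles are the first and triangles the second replicate, lines the mean width, blue DMSO and orange JNKi. All replicates of Cck are at least 7042 bp wide, and its second JNKi replicate stands at 4.0 while the other 3 are at 435.7 or more.

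H3K4me3 peaks lay within 50 kb of 5 of the 6 genes with each treatment, all but Cckar, against 78.3% of protein-coding genes in DMSO and 77.9% in JNKi. The same 5 had a peak over a start site, against 57.3% and 56.9%. At an IDR of at most 0.05 or 0.01 the JNKi count became 4, because the peak over Cck was lost. All 17 DMSO peaks were overlapped in JNKi, and 16 of the 19 JNKi peaks in DMSO, against 93.4% and 94.3% over the whole lists. The 3 JNKi peaks without overlap were weak. They lay in a Trak1 intron (121316005 to 121316614; 8.87 and 4.54), beyond the 3′ end of Lyzl4 (121576815 to 121577730; 15.3 and 3.10) and at Cavin3, downstream of Cckbr (105481982 to 105482241 on chromosome 7; 10.8 and 7.11).

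Other genes with a start inside an H3K4me3 peak in these windows were Ulk4 and Gm34655 near Trak1, Sec22c, Ss18l2 and Nktr near Vipr1, and Fam160a2 and Gm45885 near Cckbr. All 7 had such a peak with both treatments. Nktr, which encodes a cyclophilin-like protein of natural killer cells that is also widely expressed, had the strongest of these peaks with 420.7 and 364.9 in DMSO and 441.3 and 513.5 in JNKi. Of the 16 H3K4me3 peaks paired across treatments, 3 were wider and 2 narrower in both JNKi replicates, and 11 overlapped in width. Over all 17850 pairs 20.6% were wider and 14.7% narrower. In these 16 the change in mean width ran from -387 to 567 bp.

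The receptor genes differed in promoter state. Cckar (ENSMUSG00000029193.7, chromosome 5, 53697776 to 53707705, minus strand) encodes the receptor that prefers sulfated CCK and is known from acinar cells and gallbladder muscle. No H3K4me3 peak lay over either of its annotated starts, and the nearest was 101289 bp away in DMSO and 101290 bp away in JNKi. Its only cJun peak, in DMSO, lay 19996 bp upstream in intergenic DNA (53727701 to 53728537), with −log10 p of 10.6 and 5.98, rank 2461 and an IDR of 0.447. No H3K4me3 peak overlapped it. The nearest JNKi cJun peak was 419570 bp from the gene.

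Cckbr (ENSMUSG00000030898.15, chromosome 7, 105425731 to 105470898, plus strand) encodes the receptor that binds both gastrin and CCK and is known from brain and stomach. Its start lay in an H3K4me3 peak with values of 245.2 and 254.8 in DMSO (rank 4837) and 288.1 and 208.9 in JNKi (rank 6938). That peak was 3015.5 ± 12.02 bp wide in DMSO and 2735 ± 231 bp in JNKi (SD, n = 2 each), and both JNKi replicates were narrower (exact permutation p = 0.333).

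The DMSO cJun list also held a peak at the Cckbr promoter and first exon, at 105425567 to 105426814, with −log10 p of 8.85 and 6.61 and rank 2004. Its replicate summits were 867 bp apart, so the replicates located the signal at different points within the peak. In JNKi no cJun peak was found there, and the nearest was 3455114 bp away.

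**Figure D5:**
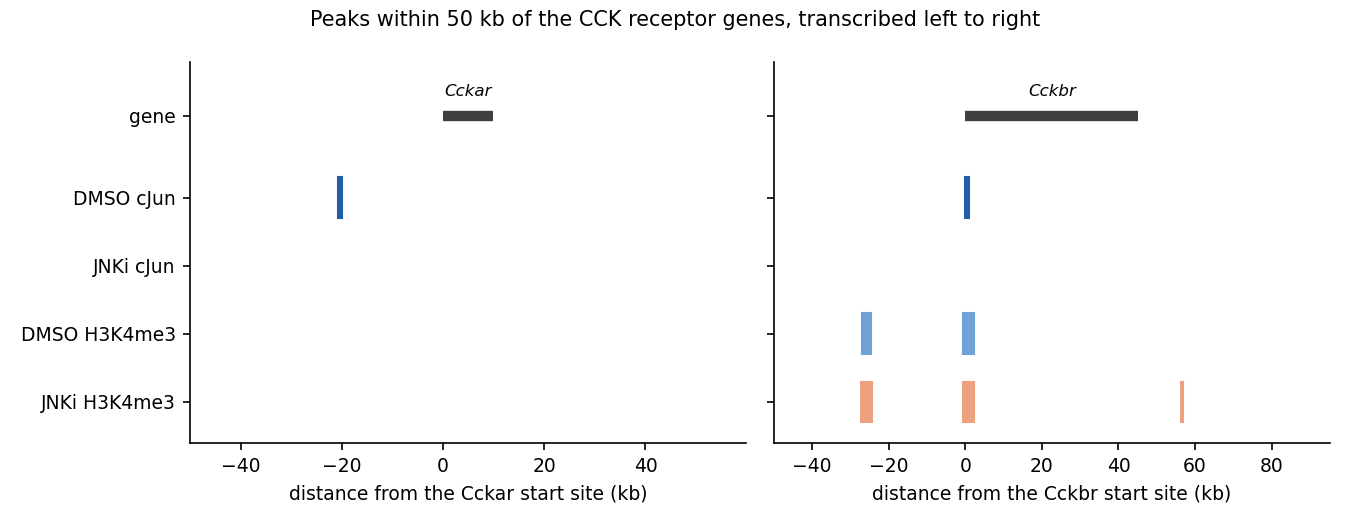
Peaks of the 4 lists within 50 kb of Cckar (left) and Cckbr (right) against distance from the start of each gene in kb, with transcription from left to right; blocks are peaks, the narrowest drawn at a minimum width. Cckar has 1 cJun block in DMSO and no H3K4me3 block, and Cckbr has H3K4me3 over its start with both treatments and cJun there in DMSO.

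Other genes of the CCK system were read from the same lists. Of 8 genes for CCK relatives and precursor processing, 7 had H3K4me3 at a start in DMSO and 6 in JNKi, against 57.3% and 56.9% of protein-coding genes. The exception in both was Gast, which encodes gastrin, and Pcsk5, a convertase, had a peak in DMSO only. The convertase genes Pcsk1 and Pcsk2, the carboxypeptidase gene Cpe, the amidating enzyme gene Pam and the tyrosylprotein sulfotransferase genes Tpst1 and Tpst2 had one with both treatments. All 8 had a DMSO cJun peak within 50 kb, but only Gast and Tpst2 a JNKi peak, against 28.4% and 12.2%. At start sites the DMSO peaks were 2, at Pcsk2 and Tpst2, and the JNKi peaks 0, against 6.94% and 2.51%.

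Of 9 receptor signalling genes, 7 had H3K4me3 at a start with each treatment, against the same 57.3% and 56.9% of all genes. Plcb2 and Plcb4, which encode phospholipases C, did not, while the G protein genes Gnaq and Gna11, Plcb1, Plcb3 and the inositol trisphosphate receptor genes Itpr1, Itpr2 and Itpr3 did. Within 50 kb, 4 had a DMSO cJun peak (Gna11, Plcb3, Plcb4 and Itpr3) and 2 (Gna11 and Itpr3) a JNKi peak, against 28.4% and 12.2%. None had either within 1 kb of a start, where the shares of all genes were 6.94% and 2.51%. Among 4 relatives of the Vipr1 system, Vipr2 had H3K4me3 at a start, whereas Vip, Adcyap1 and Adcyap1r1 did not. All 3 Trak1 partner genes (Trak2, Rhot1 and Rhot2) had it, and 0 of 5 lysozyme-like relatives of Lyzl4 (Lyzl1, Lyzl6, Spaca3, Lyz1 and Lyz2) did. These H3K4me3 counts are the same with both treatments. Within 50 kb, a DMSO cJun peak lay near Vipr2 and a JNKi cJun peak near Rhot2, and none near the other 10 genes of these 3 lists.

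Markers were read to check the cell type. With each treatment, 11 of 12 β cell genes had H3K4me3 at a start (all but Ins1), 1 of 5 α, δ and PP cell genes (Gcg), and 0 of 5 acinar and 0 of 4 immune and stromal genes, against 57.3% and 56.9% of all genes. The defining acinar genes Ptf1a and Cpa1 were among those without a peak. A cJun peak lay within 50 kb of 10 of the β cell genes in DMSO and 8 in JNKi, against 28.4% and 12.2% of all genes. With each treatment it also lay near 2 of the α, δ and PP cell genes (Hhex and Ppy) and 1 of the immune and stromal genes (Pecam1), and near 0 acinar genes.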

How the data were processed

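CUT&RUN was performed on 12 samples in 6 groups of 2, grouped by their labels. The authors trimmed read pairs of 150 bp with Trimmomatic, aligned them to GRCm38 with Bowtie2 2.4.2, filtered them with SAMtools 1.16, called narrow peaks with MACS2 2.2.7.1 against IgG and paired replicates by IDR. The deposited −log10 p-values are those of the merged peak and of each replicate. A score column, also deposited, is derived from the IDR. The lists reach down to a p just under 0.001. The methods state default calling, and the cut-off behind the lists was not determined. IgG libraries and coverage tracks were not analysed here.

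The genes and lists were chosen with earlier results of these data known. Named genes were the 6 genes, genes with a start inside a nearby peak, and the pathway and marker lists. Peaks overlapped if they shared at least 1 bp. Peaks paired across treatments were each other's largest overlap, and replicate widths were compared by a two-sided exact permutation test. A percentile is 100 for the strongest peak of a list. Backgrounds are shares of protein-coding genes, peaks, or windows. Sequence came from GRCm38 and RefSeq, and no peak lay past a chromosome end. Overlap and motif steps were tested on simulated data. Scripts ran in Python 3.11.15 with numpy 2.4.6, pandas 2.3.3 and matplotlib 3.10.9. Alternatives covered IDR thresholds, windows, overlap, start-site distance, motif window and replicates. Replicate columns carry no number and are called first and second. The duct markers and some sequences are not reported here.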

Additional observations from a re-analysis of the deposited data

How the results depend on the processing

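Of 52 alternative values for 16 results, 35 stayed within the range set for them and 17 moved. At an IDR of at most 0.05 or 0.01, 0 cJun peaks remained near the 6 genes in either list, and 12 and 10 JNKi H3K4me3 peaks remained in place of 19, since these thresholds keep fewer peaks. With each replicate column alone, the rank of the Cck cJun site spanned 2690 to 4918 (DMSO) and 629 to 1484 (JNKi). The width of the H3K4me3 peak over Cck spanned 7042 to 7132 bp (DMSO) and 7178 to 7362 bp (JNKi). Its rank by single replicates, in alternatives added after seeing the data, ran from 847 to 967 (DMSO) and from 1129 to 18788 (JNKi), and the mean of the replicates gave 828 and 6130. At 50% reciprocal overlap the Cck cJun site was not counted as shared (0 in place of 1), because 49.8% of the DMSO peak was overlapped. Within 2 kb beyond the 3′ end, a distance also added later, 1 gene (Lyzl4) in place of 2 had a cJun peak in DMSO and 1 (Lyzl4) in JNKi. The depth reached by each library was not analysed here, which limits comparisons between treatments. No paired analysis was possible because replicates are unnumbered columns of a list.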
